A study of Mus musculus with 11 samples.

Results

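Folate one-carbon metabolism was described in the old mouse aorta through the transcripts of 8 enzymes, Mthfd1l, Mthfd2, Shmt2 and Aldh1l2 in the mitochondria and Mthfd1, Shmt1, Tyms and Aldh1l1 outside them. The enzymes were chosen by name, with the difference between nitrate treated and control mice in these data already known, so that difference is given for them as a description and without a test. All 8 were found among the 36413 gene names of the array, on 10 probes, and all 10 probes passed the detection filter. Aortas came from male C57BL/6 mice aged 20 months. Old nitrate treated mice (5 arrays) drank water with 1 g/L NaNO3 for 8 weeks, and old controls (6 arrays) carry labels that call them re-analysed samples of an earlier series and name no treatment, while the methods of the study give sodium chloride to the controls. Whether both groups were housed at the same time is therefore not known from the labels. Each array held the RNA of 1 mouse, and a sixth nitrate array that the study mentions was not analysed here.

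Tetrahydrofolate carries single carbon units, taken mainly from serine, between enzymes of the mitochondria and the cytosol. In the mitochondria SHMT2 moves the carbon from serine to folate, MTHFD2 oxidizes it, and MTHFD1L releases it as formate, while ALDH1L2 burns it to carbon dioxide. In the cytosol MTHFD1 takes formate up again, SHMT1 interconverts serine and glycine, TYMS uses the carbon to make thymidylate for DNA, and ALDH1L1 burns formyl folate to carbon dioxide. The pathway feeds nucleotide synthesis and methylation, and the mitochondrial enzymes are best known from dividing and embryonic cells, whereas most cells of the adult aorta do not divide.

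Of the 8 enzymes, Mthfd1l differed most between the groups and was 2.21-fold higher in old nitrate treated mice on its brighter probe. Aldh1l1 was 1.42-fold higher in controls. The other 6 enzymes lay within 0.40 log2 units of no difference, and their groups overlapped. Log2 units are used throughout for signal after quantile normalization, a step that gives all arrays the same distribution of values, so that 1 unit is a 2-fold change. Probes differ in how strongly they bind, so brighter and dimmer only name the probes of 1 gene here, and levels of different genes were not compared.

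2 of the enzymes were measured by 2 probes each, and the MTHFD1L and MTHFD1 proteins are related, so the probes were compared letter by letter. Each probe is a strand of 60 bases. The brighter Mthfd1l probe (A_52_P167278) lies at chr10:6190563-6190622 on the minus strand of build mm9, which the files name, and the dimmer one (A_55_P2000280) at chr10:6198416-6198475 on the same strand, 7853 bases away. The Mthfd1 probe (A_51_P392928) lies at chr12:77418622-77418681 on the plus strand. No gene annotation of that build was used here, so exons and other parts of a transcript are not named. The dimmer Mthfd1l probe and the Mthfd1 probe are shown because the proteins are related. They share an identical run of 8 bases, in capitals, which is as long as any between probes of different enzymes and as long as that of the Shmt2 probe and the dimmer Shmt1 probe.
Mthfd1l, dimmer probe: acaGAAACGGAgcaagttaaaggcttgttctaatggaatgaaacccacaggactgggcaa
Mthfd1: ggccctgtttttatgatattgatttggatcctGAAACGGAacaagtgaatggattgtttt
The run starts at base 4 of the first and base 33 of the second. With the run aligned, 24 of the 31 bases that lie side by side are identical. Whether either probe also binds the other transcript was not tested.

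MTHFD1L, the formate-releasing synthetase, is the last step of the mitochondrial route. On the brighter probe, the log2 signals of Mthfd1l in old nitrate treated mice 1 to 5 were 8.03, 8.31, 8.20, 8.55 and 8.05. In controls the lowest signal was 6.74, the median 6.92 and the highest 7.79, in control 6. Every nitrate treated mouse lay above every control, with a gap of 0.23 between the groups, and the controls were more spread than the nitrate treated mice. The difference was 1.15 ± 0.18 (standard error of the limma fit, n = 5 and 6).

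The dimmer Mthfd1l probe gave 6.51, 6.71, 6.32, 6.67 and 6.18 in the nitrate treated mice. Controls ran from 4.39 over a median of 5.25 to 5.99, the highest again being control 6, and 1 of the 6 controls was not detected. The groups were separate here too, by 0.18, and the difference was 1.31 ± 0.26, or 2.48-fold. Over the 11 arrays, both probes had a Pearson correlation of 0.91, and of 0.69 once the group means were taken out. The arrays lay on 3 slides, each scanned once and each holding both groups. Within slides 1, 2 and 3, the difference was 1.38, 0.78 and 1.27 on the brighter probe and 1.64, 0.61 and 1.61 on the dimmer one. Nitrate treated mice were thus higher on every slide, on 1 nitrate array in slide 2. All 6 controls occupied slide column 3, where none of the nitrate arrays lay, so column and treatment cannot be told apart for this or any other difference.

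**Figure D1:**
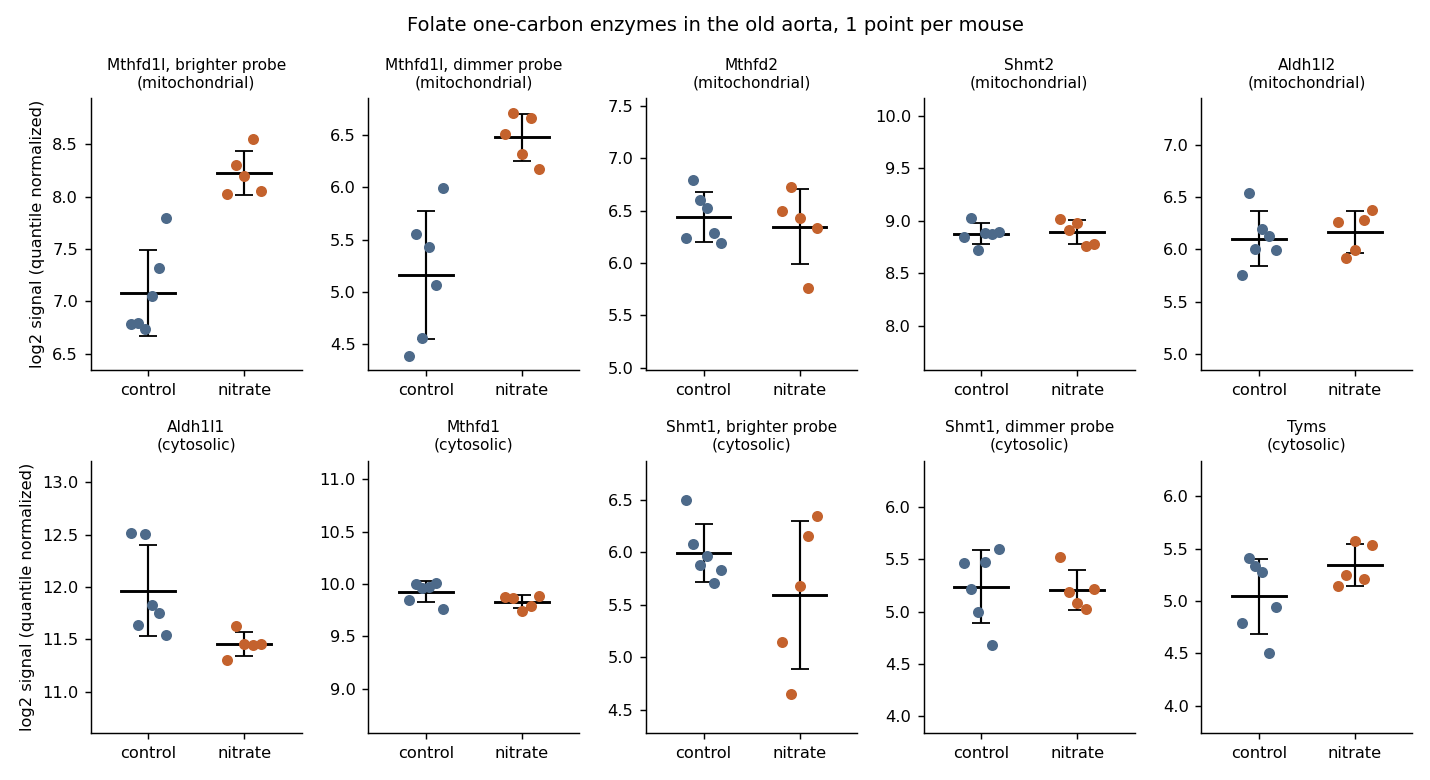
Log2 signal (vertical axis, quantile normalized, 2.6 units high in every panel) of each probe of the 8 enzymes in 6 controls and 5 old nitrate treated mice, 1 point per mouse, with the mean (wide line) and SD (bars). Both Mthfd1l probes are separate between the groups, and all other probes overlap.

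The remaining mitochondrial enzymes were close to equal in both groups. Mthfd2, the dehydrogenase that precedes MTHFD1L, read 6.49, 6.72, 6.43, 5.76 and 6.33 in the nitrate treated mice and between 6.19 and 6.79 in controls (median 6.40). Nitrate treated mouse 4, the highest on the brighter Mthfd1l probe, had the lowest Mthfd2. The groups overlapped, with a difference of -0.09 ± 0.16. Shmt2, which loads the carbon of serine, read 9.01, 8.91, 8.98, 8.76 and 8.78 against 8.72 to 9.03 in controls (median 8.88), a difference of 0.01 ± 0.07. Aldh1l2, which oxidizes formyl folate, read 6.26, 5.92, 5.99, 6.28 and 6.37 against 5.75 to 6.54 (median 6.06), a difference of 0.06 ± 0.13. In both, the nitrate treated mice lay within the range of the controls.

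Among the cytosolic enzymes, Aldh1l1, which removes carbon units as carbon dioxide, read 11.30, 11.63, 11.46, 11.45 and 11.45 in the nitrate treated mice. In controls it ran from 11.54 over a median of 11.79 to 12.51. Controls 1 and 3 stood apart at 12.51 each, the other 4 controls lay at 11.83 or below, and nitrate treated mouse 2 overlapped them. The difference was -0.51 ± 0.18, and -0.40 without control 1 as well as without control 3. Within slides 1, 2 and 3 it was -0.61, -0.23 and -0.68.

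Mthfd1, the cytosolic enzyme that joins formate to folate, was the most even of the cytosolic enzymes, at 9.88, 9.86, 9.74, 9.79 and 9.88 against 9.76 to 10.01 in controls (median 9.96). Its difference was -0.09 ± 0.07. Tyms, the thymidylate synthase, read 5.15, 5.25, 5.58, 5.21 and 5.54 against 4.51 to 5.41 (median 5.11), so the nitrate treated mice lay in the upper part of the control range and above it. The difference was 0.30 ± 0.16, and 0.19 without control 5 and 0.11 with normexp background correction.

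The Shmt1 probes did not give the same picture. On the brighter one (chr11:60603099-60603158, minus strand, mm9), nitrate treated mice 1 to 5 read 5.14, 4.65, 5.68, 6.16 and 6.35, and controls 5.70 to 6.51 (median 5.92). The difference of -0.40 ± 0.28 was carried by the mice of 1 slide, being -1.40, -0.22 and 0.46 within slides 1, 2 and 3. On the dimmer one (chr11:60620453-60620512), 17354 bases away, the nitrate treated mice read 5.52, 5.19, 5.08, 5.02 and 5.22 and controls 4.69 to 5.60 (median 5.34), a difference of -0.03 ± 0.16. It was detected in 3 of 6 controls and passed the filter through the nitrate arrays. Over the 11 arrays both Shmt1 probes had a correlation of 0.03, so they gave no common profile of Shmt1.

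**Figure D2:**
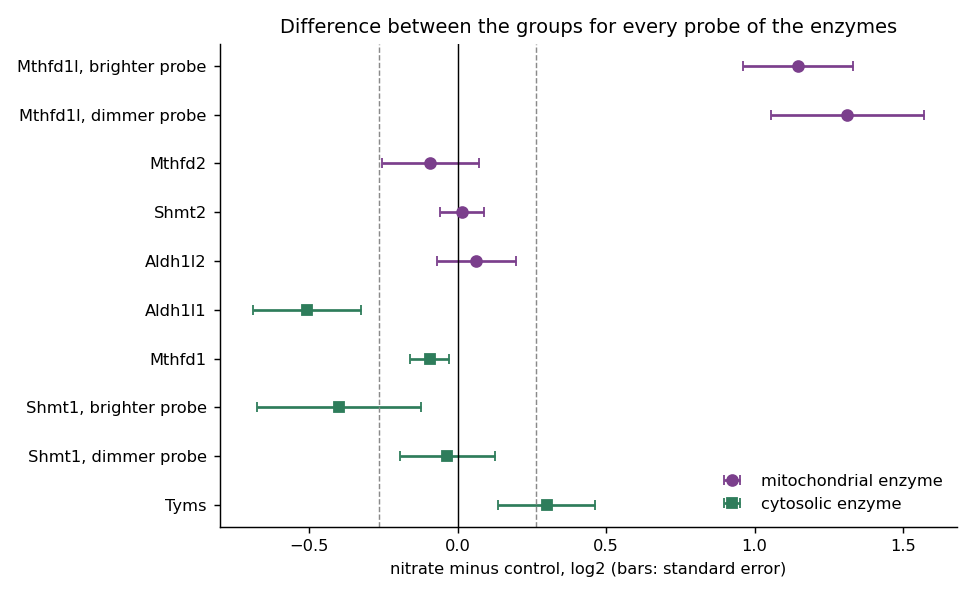
Difference between old nitrate treated mice and controls (horizontal axis, log2, bars are standard errors) for the 10 probes, circles for mitochondrial and squares for cytosolic enzymes, with dashed lines at a fold change of 1.2. Mthfd1l lies at 1.15 and 1.31, Aldh1l1 at -0.51, and the rest between -0.40 and 0.30.

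Differentially expressed transcripts were those with a limma P value below 0.05, before adjustment, that also differed by more than 1.2-fold. Of all tested probes, 9.00% were called, 4.16% as higher and 4.85% as lower in old nitrate treated mice, and 2.75% had groups that did not overlap. 2 of the 8 enzymes were past the same limits, Mthfd1l as higher and Aldh1l1 as lower, and 1 of the 8, Mthfd1l, had no overlap. The enzymes were picked on this contrast and nothing is read from these counts. Their median difference was -0.04, and that of all tested probes 0.01.

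When each enzyme was centred on its own mean and the 4 mitochondrial ones were averaged in each mouse, nitrate treated mice lay between 0.08 and 0.21 and controls between -0.35 and 0.04. The groups did not overlap, and the mean difference was 0.28. Without Mthfd1l it was 0.00, with overlap, so the mean difference came from Mthfd1l. The cytosolic mean ran from -0.31 to 0.15 in nitrate treated mice and from -0.16 to 0.27 in controls, a difference of -0.17 with overlap. Without Aldh1l1 it was -0.06. The mitochondrial mean minus the cytosolic mean was 0.46 higher in nitrate treated mice, with overlap, since nitrate treated mice 4 and 5 read 0.08 and -0.02 and controls 5 and 6 read 0.06 and 0.10. With Mthfd1l and Aldh1l1 both left out, this contrast came to 0.06.

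The wider pathway was followed in 87 genes on 8 lists. 74 had a detected probe, and 7 of these were called by limma, 1 as higher and 6 as lower, a share of 9.46% that is near that of all probes. None had an adjusted P value under 0.05 after Benjamini-Hochberg adjustment over all tested probes, where 3 probes of the array passed. The median difference of the 74 was -0.02.

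Folate enters cells through carriers. Slc19a1, the reduced folate carrier, read 9.22, 8.94, 9.21, 9.29 and 9.26 in nitrate treated mice and 9.30 to 10.43 in controls (median 9.76). The groups were separate by only 0.01, and the difference was -0.59 ± 0.16 (limma, P value 0.00368, adjusted 0.186). A second Slc19a1 probe differed by -0.19 and was not called (P value 0.313). Slc46a1, the proton-coupled folate transporter, read 8.95, 8.93, 9.10, 9.22 and 9.29 against 9.25 to 9.61 (median 9.42). It overlapped in nitrate treated mouse 5 and fell by 0.32 ± 0.09 (limma, P value 0.00342, adjusted 0.182), and its second probe differed by the same amount. The other 4 detected genes of uptake and storage were not called.

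Among the enzymes that interconvert folates, 0 of 7 detected genes were called. The smallest P value was that of Mthfd2l, a mitochondrial relative of Mthfd2, at 0.15 ± 0.06 (limma, P value 0.0381, adjusted 0.325), with a fold change under 1.2. In glycine cleavage and methyl-group oxidation 0 of 8 were called, and 6 of 8 were lower. Aldh7a1, which oxidizes betaine aldehyde among other substrates, had the smallest P value there, at 0.09 ± 0.05 (limma, P value 0.104, adjusted 0.442). In serine synthesis and transport 0 of 7 were called on the probe that stood for the gene, and 5 of 7 were lower. A second Sfxn1 probe, named after its value was seen, was past the limits, at -0.32 (limma, P value 0.0299), where the first gave -0.24 ± 0.14. Sfxn3, of the sideroflexin family of mitochondrial carriers, read 12.17, 12.16, 11.98, 12.02 and 12.05 against 11.60 to 11.93. Its groups did not overlap, but its difference of 0.25 ± 0.07 stayed under the fold change limit (limma, P value 0.00486, adjusted 0.197).

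Ahcyl2, an S-adenosylhomocysteine hydrolase-like protein, belongs to the methionine cycle list, where 2 of 7 detected genes were called as lower, beside 4.85% of all tested probes. It read 10.71, 10.78, 10.97, 10.94 and 10.60 in nitrate treated mice against 11.10 to 11.32 in controls (median 11.23). The groups were separate by 0.14. Ahcyl2 fell by 0.42 ± 0.08 (limma, P value 0.000195, adjusted 0.0940), and its other detected probe differed by -0.48. Cth, the cystathionine lyase that makes cysteine and hydrogen sulfide, fell by 0.46 ± 0.21 with overlap (limma, P value 0.0489, adjusted 0.345), and was detected in 4 of 5 nitrate treated mice. It thus passed the detection filter through the controls alone, where it was the higher, and was not called with detection on all 11 arrays. Cth was no longer called when control 1, 3, 4 or 6 or nitrate treated mouse 1 or 3 was left out, 6 of 11 such fits, nor in 6 of 11 other settings, among them normexp background correction and slide as a block.

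In purine synthesis 1 of 12 detected genes was called on the probe that stood for the gene. Impdh1, which commits purines to guanine nucleotides, read 10.26, 10.20, 10.52, 10.73 and 10.34 against 10.76 to 11.47 (median 11.05). It was separate by 0.02 and fell by 0.66 ± 0.13, or 1.58-fold (limma, P value 0.000333, adjusted 0.104). Gart and Atic, the formyl folate-dependent transformylases of the route, gave -0.14 ± 0.07 and -0.08 ± 0.09 and were not called. Both were named after their values were seen. In thymidylate and deoxynucleotide supply 0 of 6 were called, and Tk1, the thymidine kinase of dividing cells, gave 0.24 ± 0.14 (limma, P value 0.121, adjusted 0.468).

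ATF4 is a transcription factor known to raise serine and mitochondrial folate enzymes under stress. The list of ATF4 and its targets left out the serine synthesis genes and the mitochondrial folate enzymes, which were counted elsewhere. There, 2 of 7 genes of serine synthesis and transport were higher and 5 lower, and 3 of 4 mitochondrial enzymes were higher and 1 lower. Of 21 detected genes on the ATF4 list, Atf4 itself included, 10 were higher and 11 lower, with a median difference of -0.01. These counts do not cover the enzymes left out. On the probes that stood for the genes 2 were called, in opposite directions. Asns, the asparagine synthetase, fell by 0.46 ± 0.16 with overlap (limma, P value 0.0122, adjusted 0.251), and Nupr1, a stress-induced nuclear protein, rose by 0.33 ± 0.12 with overlap (limma, P value 0.0178, adjusted 0.274) but was not called without nitrate treated mouse 2 or with the replicate number as a block. Atf4, named after its value was seen, gave 0.19 ± 0.20.

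**Figure D3:**
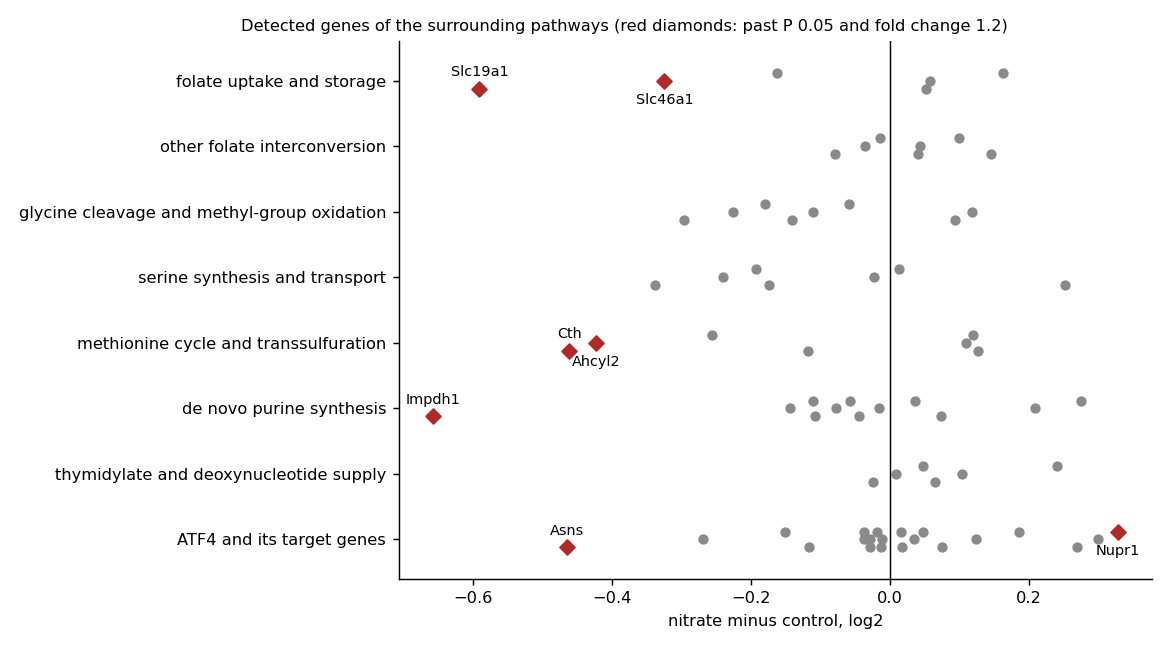
Difference between old nitrate treated mice and controls (horizontal axis, log2) of the 74 detected genes on 8 pathway lists, 1 point per gene. The 7 genes past both limits are red diamonds with their names, 6 on the left of 0 and Nupr1 on the right.

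In whole tissue, fewer cells of a type and less RNA per cell cannot be told apart, and the aorta carries other cells along. Acta2 and Myh11, which mark smooth muscle, were detected in all mice, with differences of 0.03 ± 0.07 and 0.15 ± 0.14. Acta2 read 18.0645 in controls 3 and 5 and in nitrate treated mouse 5 alike, because quantile normalization gives equal ranks the same value. Its difference therefore follows ranks and says little about the amount of smooth muscle. Of 14 detected proliferation markers 0 were called, with Mki67 at 0.00 ± 0.12 and Pcna at 0.09 ± 0.07. Pecam1 and Cdh5 of endothelium gave 0.18 and -0.20, Pdgfra and Dcn of fibroblasts 0.12 and 0.05, Emr1 and Cd68 of macrophages 0.14 and 0.12, Cd3e and Cd4 of lymphocytes 0.01 and 0.08, S100b of glia 0.02, and Hbb-b1 and Hba-a1 of red cells -0.46 and -0.45. None of these genes was called. Over the whole lists, and beside 4.16% of all tested probes called as higher and 4.85% as lower, 1 of 10 detected smooth muscle genes was called as higher, 1 of 4 lymphocyte and 1 of 8 glial genes as lower, and 0 of 10 endothelial, 0 of 9 fibroblast, 0 of 9 macrophage, 0 of 9 striated muscle and 0 of 4 red cell genes. Without regard to calls, 9 of 9 fibroblast, 9 of 9 macrophage, 9 of 10 smooth muscle and 8 of 9 striated muscle genes were higher, with median differences of 0.16, 0.12, 0.13 and 0.80. Heart muscle markers varied most, with Myh6 between 7.14 and 14.64 and Actc1 between 7.27 and 13.23, highest in control 1 and nitrate treated mouse 4 in each case.

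Fat cell markers were present in aortas that the labels describe as freed of surrounding fat. Of 20 white adipocyte markers, all detected, 8 were called as lower and 12 were not called, beside 4.85% of all tested probes called as lower, and none had an adjusted P value under 0.05 by limma. 19 of the 20 were lower, with a median difference of -0.31. Adipoq, the adiponectin gene, fell by 0.49 ± 0.11 without overlap (limma, P value 0.000752, adjusted 0.130). Lep gave -0.45 ± 0.36 and was not called. The mean of the list ran from -0.46 to 0.02 in nitrate treated mice and from -0.17 to 0.57 in controls. Among 11 brown adipocyte markers 5 were higher and 6 lower, and 1 was called in each direction, with Ucp1 at 0.23 ± 0.38 and Cidea at -0.52 ± 0.16. Controls 1 and 3, which had the highest Aldh1l1, also had the highest white adipocyte means. The kind of fat behind the lower markers, white or brown, was not tested, and neither was the part of fat cells in the Aldh1l1 difference.

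How the enzymes varied among mice of 1 group does not use the contrast they were chosen on. Log2 signals were centred on the group means and correlated over the 11 mice, with permutation tests within groups (100000 permutations, two-sided) and Benjamini-Hochberg adjustment. Among the 28 pairs of enzymes, 0 passed an adjusted P value of 0.05, the smallest being 0.487. The strongest pair by unadjusted P value was Shmt2 with Aldh1l1, at r = -0.56 (permutation P value 0.0448). Spearman rho of that pair was -0.46 (permutation P value 0.154, adjusted 0.754), and r was -0.42 without the 2 mice farthest from the median of Shmt2. No pair could thus be shown to vary together in these 11 mice.

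Of 32 relations between an enzyme and a list mean, 1 passed the adjustment, that of Aldh1l1 with serine synthesis and transport. Pearson r was 0.89 (permutation P value 0.00125, adjusted 0.0400) and Spearman rho 0.90 (permutation P value 0.00253, adjusted 0.0810). The correlation rested in part on controls 1 and 3, and was 0.72 in the other 9 mice. With the slide also taken out it was 0.93 (adjusted P value of the permutation test 0.00832). Mice were still permuted within groups and not within slides there, so that P value is only approximate. With 75th percentile scaling in place of quantile normalization r was 0.91 and did not pass (adjusted P value of the permutation test 0.0576). By gene, Aldh1l1 followed Sfxn1, a mitochondrial serine carrier, at r = 0.96, Psph at 0.91, Slc1a5 at 0.78 and Psat1 at 0.70, but not Slc1a4 at 0.24, and it ran opposite to Phgdh at -0.55 and Sfxn3 at -0.57. Phgdh, Psat1 and Psph are the 3 enzymes of serine synthesis, and they were split. With the white adipocyte mean, r was 0.81 (permutation P value 0.00990, adjusted 0.0918) and rho 0.77 (permutation P value 0.0130, adjusted 0.139), and r was 0.40 without controls 1 and 3. This was not particular to Aldh1l1, as Shmt1 on its brighter probe gave r = 0.65 with that mean (permutation P value 0.0115, adjusted 0.0918). Shmt2 gave r = -0.73 with the serine list (permutation P value 0.00812, adjusted 0.0918). The serine list and the adipocyte list were themselves correlated, at r = 0.73.

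**Figure D4:**
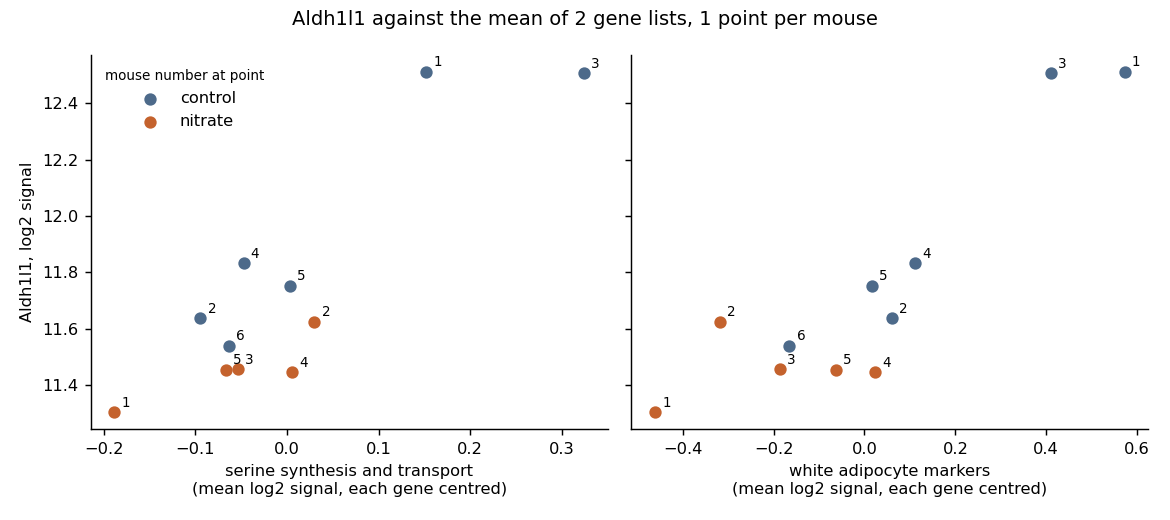
Log2 signal of Aldh1l1 (vertical axis) against the mean of the serine synthesis and transport genes (left) and of the white adipocyte markers (right; both as mean log2 signal, each gene centred), 1 numbered point per mouse. Controls 1 and 3 stand at the top right of both panels, with Aldh1l1 at 12.51.

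The genes whose pattern was most like the mitochondrial mean over the 11 arrays, groups not taken out, were Hmgn3 (r = 0.98), Rbpms (r = 0.96) and Spin4 (r = 0.96). Those most like the cytosolic mean were Lars2 (r = 0.96), Nfs1 (r = 0.94) and Bphl (r = 0.93), of which Lars2 and Nfs1 encode mitochondrial proteins, a leucyl-tRNA synthetase and a cysteine desulfurase. For Mthfd1l alone, a comparison added after its values were seen, Tspan4 (r = 0.95), Gm5827 (r = 0.95), Etv5 (r = 0.95), Per2 (r = 0.94) and Tef (r = 0.94) came first. Gm5827 is a predicted RNA that the files describe as similar to Rev-Erb-beta. Per2 and Tef belong to the circadian clock, the daily oscillator of cells, in which ARNTL drives Per genes and Dbp and is in turn repressed.

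A list of 16 clock genes was therefore set beside Mthfd1l, chosen after its values had been seen and without a test. 13 had a detected probe, and Clock, Cry1 and Nr1d2, the Rev-Erb-beta gene, did not. Per2 read 7.65, 7.80, 7.73, 8.31 and 7.66 in nitrate treated mice and 6.35 to 7.34 in controls. Arntl read 7.35, 6.61, 6.16, 5.12 and 8.01 against 6.67 to 8.79. Control 6, the control nearest to the nitrate treated mice in Mthfd1l, had the highest Per2 and the lowest Arntl of the controls, and nitrate treated mouse 4, the highest on the brighter Mthfd1l probe, had the highest Per2 and the lowest Arntl of all. With the group means taken out, r with the brighter Mthfd1l probe was 0.84 for Per2, 0.80 for Dbp, 0.80 for Tef and -0.81 for Arntl, and above 0.6 in size for 11 of 13 genes. Of 23617 tested probes with a value on every array, 9.70% passed that size, and the list was taken up because Per2 and Tef ranked high, so its count restates that choice in part. Within the 6 controls r was 0.81 for Per2, 0.77 for Dbp and -0.94 for Arntl. The sign was the same in controls and nitrate treated mice for 13 of 13 genes. No share over all tested probes was computed for the sign. The choice of the list bears on this count too, and genes of 1 oscillator are not 13 separate cases.

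The dimmer Mthfd1l probe followed the clock genes less closely, at r = 0.53 for Per2, 0.27 for Dbp and -0.44 for Arntl, and above 0.6 in size for 2 of 13 genes, where 17.4% of all tested probes passed that size. Its sign was the same in controls and nitrate treated mice for 10 of 13 genes, again without a share over all probes. Over the 13 genes, the median size of r was 0.69 for the brighter and 0.38 for the dimmer Mthfd1l probe, beside 0.46 for Mthfd1, 0.41 for Mthfd2 and between 0.12 and 0.36 for the other 5 enzymes. Over all 23617 probes that median was 0.28 for the brighter and 0.34 for the dimmer Mthfd1l probe, so the dimmer one lay near its background. Mthfd2 ran the opposite way to the brighter Mthfd1l probe, with r = -0.69 for Dbp and 0.64 for Arntl. Of the 13 clock genes, 8 lay above and 5 below the controls on average, with Dbp at 1.22 ± 0.28, Per2 at 0.95 ± 0.21, Arntl at -1.24 ± 0.49, Cry2 at 0.17 ± 0.08 and Nr1d1 at -0.07 ± 0.13. The hour at which aortas were taken is not in the labels, and its part in the Mthfd1l difference was not tested.

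**Figure D5:**
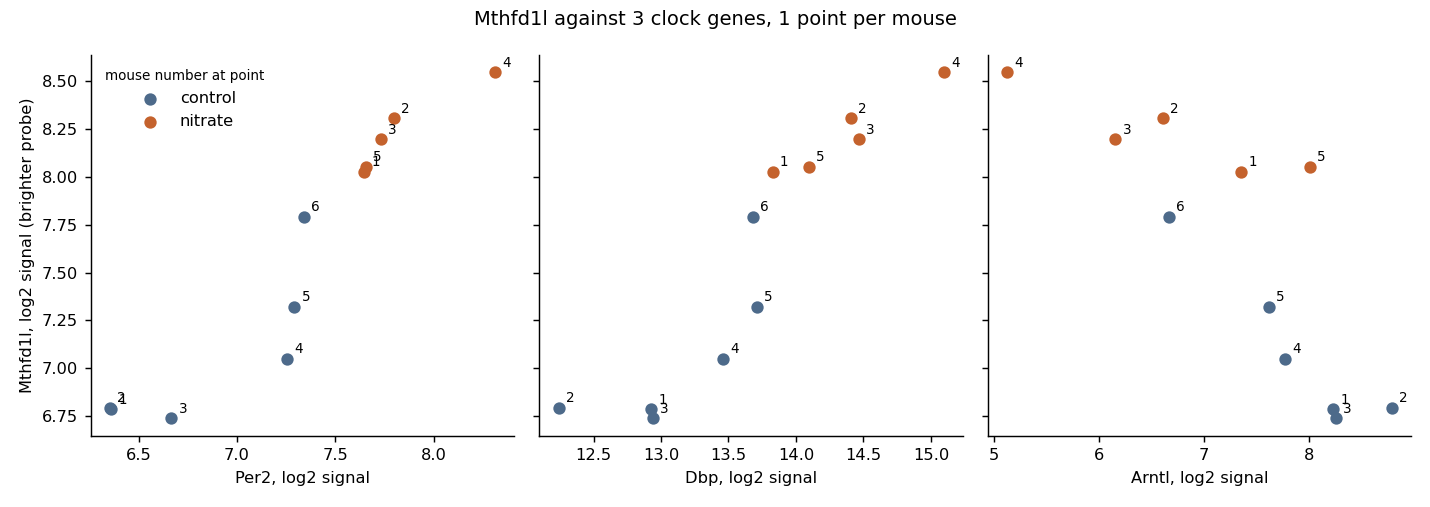
Log2 signal of the brighter Mthfd1l probe (vertical axis) against Per2, Dbp and Arntl (horizontal axes, log2 signal), 1 numbered point per mouse. Within controls and within old nitrate treated mice, this probe tends to be higher where Per2 and Dbp are higher and where Arntl is lower. Arntl overlaps between the groups, and nitrate treated mouse 5, at 8.01, lies above controls 4, 5 and 6.

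Promoters were read from RefSeq (build GRCm38.p6, 250 bases before to 50 bases after the gene start) for 7 of the 8 enzymes. 4 short motifs were searched on both strands, CACGTG (the E-box bound by ARNTL and other factors), TTANGTAA (the D-box bound by DBP, TEF and HLF), TGATGNAA (an ATF4-type element) and TTTNNCGC (an E2F-type element), none of which contains another. Of 32851 promoters, 7.15%, 2.32%, 3.97% and 5.17% held them. The promoter of Mthfd1l, shown because its transcript carried the difference, held none. That of Tyms, shown beside it, held an E-box and an E2F-type element, in capitals, and the Shmt2 promoter held an E2F-type element. The other 4 promoters held none. These are matches of letters and not measured binding. The Mthfd1l promoter lies on the plus strand in GRCm38.p6 and the Mthfd1l probes on the minus strand in mm9, as each source gives them, and no coordinates were compared between the builds.
Mthfd1l promoter, chr10:3972825-3973124, plus strand: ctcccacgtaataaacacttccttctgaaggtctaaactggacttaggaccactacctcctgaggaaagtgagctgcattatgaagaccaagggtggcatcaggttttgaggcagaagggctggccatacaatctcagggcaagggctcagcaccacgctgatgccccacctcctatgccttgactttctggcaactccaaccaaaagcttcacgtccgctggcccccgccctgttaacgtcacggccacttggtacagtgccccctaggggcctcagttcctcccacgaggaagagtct
Tyms promoter, chr5:30073576-30073875, minus strand: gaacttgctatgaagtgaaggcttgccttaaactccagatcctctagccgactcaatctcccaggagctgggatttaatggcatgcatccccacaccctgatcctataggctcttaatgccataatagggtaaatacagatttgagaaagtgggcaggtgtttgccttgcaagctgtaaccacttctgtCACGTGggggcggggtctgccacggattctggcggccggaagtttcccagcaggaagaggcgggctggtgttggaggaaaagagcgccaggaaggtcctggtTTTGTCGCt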

How the data were processed

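RNA of the descending aorta was labeled with Cy3 and hybridized to 60-base probes on one-color Agilent arrays. Per the file headers, the authors' intensity values are processed signals of Feature Extraction 10.7.1.1, with local background already subtracted but arrays left on their own scales. A log2 table, also deposited, matched the quantile normalized signals once each probe was centred on its median.

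Processed signals were raised to at least 1, control and outlier-flagged spots left out, log2 values averaged over the spots of a probe, and arrays quantile normalized. Detection required a spot that was found and clearly brighter than background on 5 or more arrays of 1 group, and left 23632 of 55681 probes. These were tested with limma 3.58.1 in R 4.3.3, over all arrays, with Benjamini-Hochberg adjustment. On each array, at most 186 of 59305 spots were flagged, none was saturated, the 75th percentile of signal was 213 to 289, and array pairs correlated at 0.982 to 0.995, with control 1 lowest on average at 0.985. The number of arrays limits the precision. A limma P value sets the difference between the groups against the spread between mice, and that difference includes slide column.

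For a gene with several probes, the brightest detected one on average stood for it. Named were all enzymes, in each pathway list the called genes or else the one with the smallest P value, the first 2 detected genes of each marker list (1 gene is not reported here), and the 3 genes most like each enzyme mean. The enzymes and lists were chosen with earlier results of these data known. Other settings tried were 75th percentile scaling, normexp correction, a pseudocount of 16, the deposited table, other detection filters, keeping flagged spots, another prior variance, blocks for replicate number, slide and its columns, the mean of a gene's probes, and leaving out each array.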

Additional observations from a re-analysis of the deposited data

Results flagged for a closer look

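Among 86 groups of values, 7 held 1 mouse well outside the rest, judged by the gap to its nearest neighbour as a share of the range of the group, where chance gives about 1 in 20, or 4.3. Nitrate treated mouse 2 was low in Slc19a1 (0.771). Control 1 was low in Sfxn3 (0.634), Tk1 (0.694), the smooth muscle list (0.714) and the fibroblast list (0.717), and high in the brown adipocyte list (0.730), so 5 of the 7 were control 1. Control 5 was high in the list of ATF4 and its targets (0.717). No value of the 8 enzymes met this rule.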

How the results depend on the processing

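Each of the 8 enzymes kept its difference within 1 SD of the spread between mice under all 23 alternatives, and so did the mitochondrial mean, the cytosolic mean and their contrast. Mthfd1l ranged from 0.82, with normexp background correction, to 1.29, and Aldh1l1 from -0.59 to -0.40. Mthfd2 ranged from -0.18 to 0.06, Shmt2 from -0.02 to 0.05 and Aldh1l2 from -0.01 to 0.15, so their direction was not fixed. Mthfd1 ranged from -0.13 to -0.07. Shmt1 ranged from -0.59 to -0.16, the latter without nitrate treated mouse 2, and Tyms from 0.11, with normexp, to 0.37, with 0.19 without control 5. As a description, since the enzymes were chosen on this contrast, the count past both limits was 2 or 3 in these 23 fits, the added one being Tyms without control 2 and Shmt1 without nitrate treated mouse 5. Transcripts called went from 2128 to 1218 with normexp, 3224 without a detection filter, 1370 with slide column as a random block, 3394 without the fold change limit and 3 at an adjusted P value under 0.05, and to between 1596 and 2424 with each array left out. Of calls, 46.1% were higher, against 35.8% with normexp, 53.2% without a detection filter and 53.7% without control 3. Pathway genes called were 6 to 11 with each array left out, 11 without control 5, against 7. Slc19a1, Slc46a1, Ahcyl2, Impdh1 and Asns stayed called with any 1 array left out and under the 11 other settings run gene by gene. At the 75th percentile scaling 0 relations of an enzyme with a list mean passed (Aldh1l1 with the serine list, r = 0.91, adjusted permutation P value 0.0576). With the replicate number as a block, which leaves out control 6, 2433 transcripts, 9 pathway genes and 2 enzymes were called. Equal numbers did not pair mice (correlation of deviations -0.14 to 0.18), and 1 of 5 nitrate arrays correlated best with the control of its number. The causes were not tested.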
